A study of Mus musculus with 4 samples.

Results

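Skeletal muscle sarcomere and calcium genes are described here in whole inguinal mammary gland of mice lacking Mt2-mmp and of their wild-type littermates. The list held 35 genes that encode the thick and thin filaments, the Z-disc, the calcium release system and the energy supply of skeletal muscle fibres. For 33 of them a probe set with that single gene symbol was found among the 17097 genes measured, and the brightest probe set stood for each gene. Nebulin (Neb) and the fast myosin-binding protein C gene Mybpc2 had no probe set named for them and were not analysed here.

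In a muscle fibre, myosin of the thick filament pulls on actin of the thin filament when calcium binds troponin. Calcium leaves the sarcoplasmic reticulum through the ryanodine receptor after the voltage sensor of the surface membrane is activated, and a calcium pump returns it. Fibres use separate genes for fast, slow and developmental forms of the same parts, and in the mouse the embryonic and neonatal myosins give way to adult forms after birth. Skeletal muscle is not a part of the mammary parenchyma, but sheets of it lie beneath the skin and in the body wall next to the inguinal fat pad.

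The study asked how loss of Mt2-mmp, a membrane-anchored matrix metalloproteinase (gene symbol Mmp15), affects the early mammary gland. Gene expression was measured on 4 Affymetrix arrays, 2 from Mt2-mmp(-/-) mice, which lack the gene in every tissue, and 2 from Mt2-mmp(+/+) littermates. All mice were 10 days old and congenic on C57BL/6J, and no treatment was given in the labels. The labels call the arrays of a genotype biological replicates without saying whether an array holds 1 mouse or a pool, so the p-values measure the spread between these samples. The sex of the mice and the deleted part of the gene were not given in the sources used here. No probe set was named Mmp15, so the targeted gene gave no check of the labels. The authors summarised each probe set on the log2 scale with RMA (robust multi-array average), and every difference here is knockout minus wild type. White adipocyte genes averaged above 10 in every array. Mean log2 levels of 13 mammary and skin epithelium genes were 7.72 and 7.19 in knockout arrays 1 and 2. In wild-type arrays 1 and 2 they were 7.43 and 7.83. That list holds epidermal genes too, so its level does not separate gland from skin. Of the 13 genes, 11 had a log2 fold change below 0, with a median of -0.197.

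Arrays of the same genotype stood apart in other tissue. Hair follicle markers (9 of 12 listed genes measured) had mean log2 levels of 8.26 and 4.23 in knockout arrays 1 and 2, against 4.29 and 8.01 in wild-type arrays 1 and 2. One array of each genotype was high in these genes and the other was low. Array medians over all probe sets lay between 5.19 and 5.21.

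Most of the muscle genes were dim. The array carries 23 nonspecific control probe sets, whose median was 3.26 to 3.28 on the 4 arrays and whose 95th percentile was 4.49 to 4.56. Above that 95th percentile lay 19 of 33 muscle genes in knockout 2 and 13 in knockout 1, against 15 in wild type 1 and 14 in wild type 2, which is 57.6% and 39.4% of them against 45.5% and 42.4%. Of all genes, 71.8% to 72.7% lay above it. The same 13 muscle genes were above it in all 4 arrays and 14 were above it in none, among them the embryonic and neonatal myosins, titin, the ryanodine receptor and the voltage sensor. Myh4, Tnni1 and Pvalb were above it in knockout 2 only. RMA compresses differences between dim values, so differences among the 14 may be understated. In whole tissue, fewer fibres and less RNA per fibre cannot be told apart.

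**Figure D1:**
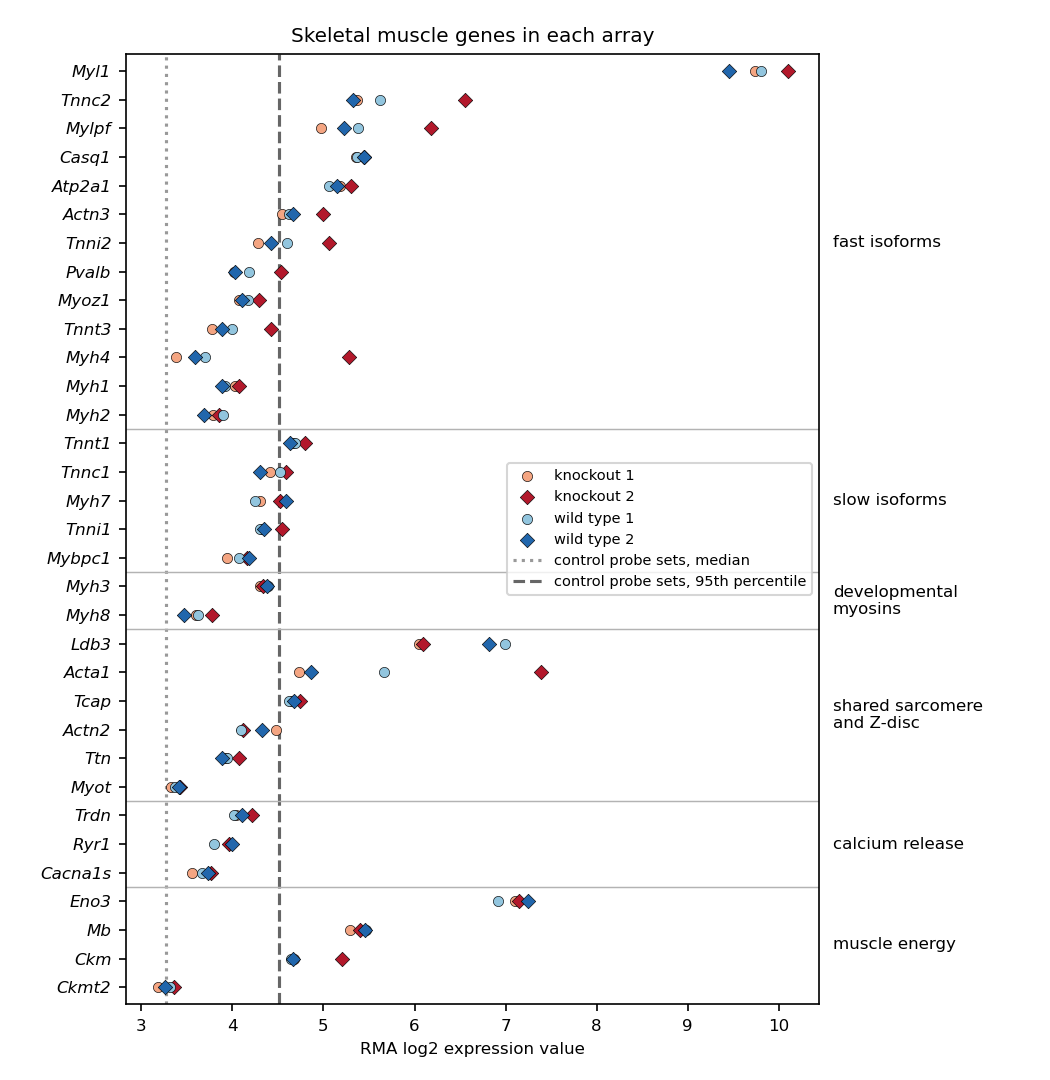
RMA log2 value (x axis) of the 33 measured muscle genes (rows, grouped by role, with Casq1, Atp2a1 and Pvalb among the fast genes) in 2 knockout arrays (red shades) and 2 wild-type arrays (blue shades). Dotted and dashed lines mark the median and the 95th percentile of the 23 nonspecific control probe sets, averaged over arrays; knockout 2 lies to the right of the other 3 arrays for Acta1, Myh4, Tnnc2 and Mylpf, and both knockouts lie to the left of both wild types for Ldb3.

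No muscle gene passed the test for genotype. By limma with Benjamini-Hochberg adjustment over all genes, 0 of 33 muscle genes had an adjusted p under 0.05, where 0.00585% of all genes did. At an unadjusted p under 0.05 there was 1 muscle gene, Ldb3, where 7.01% of all genes passed. Its direction was lower, as for 3.38% of all genes, and 0 muscle genes were higher at that p, where 3.63% of all genes were. The log2 fold change was above 0 in 24 of 33 muscle genes, a share of 72.7% where 48.8% of all genes lay above 0. Their median was 0.083, beside -0.0022 over all genes. That count and median rested on knockout 2: without it 11 of 33 lay above 0 and the median was -0.067. Without knockout 1, 29 of 33 lay above 0 and the median was 0.148. The genotypes did not overlap for 6 muscle genes, where they did not for 37.6% of all genes. They were 3 genes higher in knockouts (Ckm, Myh1 and Atp2a1), where 18.2% of all genes were so placed, and 3 lower (Ldb3, Mb and Myh3), where 19.4% were. With 2 arrays against 2, an exact permutation test cannot give a p below 0.333, so every p here comes from the limma model across genes.

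**Figure D2:**
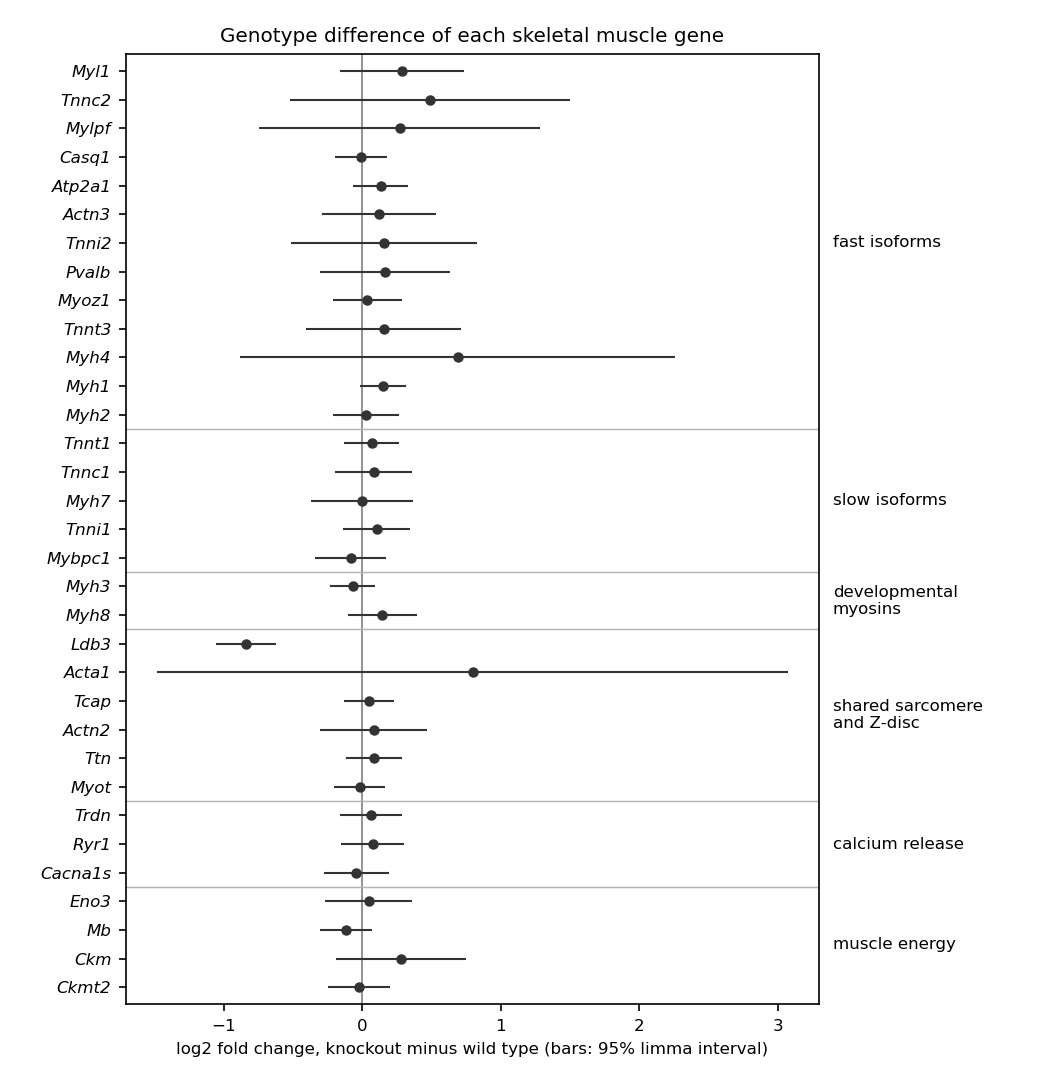
Log2 fold change, knockout minus wild type (x axis), of the 33 muscle genes with 95% limma intervals (bars; 2 arrays a genotype). The interval of Ldb3, from -1.05 to -0.62, lies below 0, while those of Acta1 (-1.48 to 3.07) and Myh4 (-0.88 to 2.26) are the widest.

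Promoters of 5 genes are shown for the genes that the values turn on. Acta1, Myh4, Mylpf and Tnnc2 were the muscle genes in which knockout 2 stood farthest above the other arrays, and Ldb3 had the lowest unadjusted p for genotype. The windows are from RefSeq (GRCm38.p6), from 250 bases before to 50 bases after the annotated start, written 5′ to 3′ on the gene's strand. Capitals mark E-boxes (CANNTG, the core bound by myogenic basic helix-loop-helix factors) and CArG boxes (bound by serum response factor), searched on both strands. The Acta1 window lies at chr8:123894726-123895025 (minus strand), Myh4 at chr11:67237562-67237861 (plus), Mylpf at chr7:127211358-127211657 (plus), Tnnc2 at chr2:164779685-164779984 (minus) and Ldb3 at chr14:34588632-34588931 (minus, the first of 2 listed windows).
Acta1: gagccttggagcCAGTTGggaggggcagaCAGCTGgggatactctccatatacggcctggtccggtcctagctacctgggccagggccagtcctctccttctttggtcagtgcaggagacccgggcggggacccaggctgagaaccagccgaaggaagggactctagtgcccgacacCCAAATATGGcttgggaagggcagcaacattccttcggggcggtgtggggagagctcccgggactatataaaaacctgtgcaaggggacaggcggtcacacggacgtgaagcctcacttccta
Myh4: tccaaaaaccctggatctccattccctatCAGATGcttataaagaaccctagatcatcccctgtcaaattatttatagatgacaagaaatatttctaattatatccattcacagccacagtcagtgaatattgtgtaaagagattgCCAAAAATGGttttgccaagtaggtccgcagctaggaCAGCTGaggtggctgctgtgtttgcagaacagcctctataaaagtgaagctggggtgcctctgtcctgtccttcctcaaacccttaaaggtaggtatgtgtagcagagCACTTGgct
Mylpf: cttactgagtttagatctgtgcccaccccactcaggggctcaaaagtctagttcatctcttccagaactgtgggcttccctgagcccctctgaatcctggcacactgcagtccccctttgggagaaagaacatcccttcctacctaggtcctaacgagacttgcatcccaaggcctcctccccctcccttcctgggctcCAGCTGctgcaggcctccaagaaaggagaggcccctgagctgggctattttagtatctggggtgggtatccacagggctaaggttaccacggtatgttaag
Tnnc2: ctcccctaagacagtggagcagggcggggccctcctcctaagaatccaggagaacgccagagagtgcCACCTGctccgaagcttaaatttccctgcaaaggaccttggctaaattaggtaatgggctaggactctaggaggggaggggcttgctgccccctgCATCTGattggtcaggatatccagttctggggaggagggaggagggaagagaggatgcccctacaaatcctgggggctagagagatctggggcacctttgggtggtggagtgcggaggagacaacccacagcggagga
Ldb3: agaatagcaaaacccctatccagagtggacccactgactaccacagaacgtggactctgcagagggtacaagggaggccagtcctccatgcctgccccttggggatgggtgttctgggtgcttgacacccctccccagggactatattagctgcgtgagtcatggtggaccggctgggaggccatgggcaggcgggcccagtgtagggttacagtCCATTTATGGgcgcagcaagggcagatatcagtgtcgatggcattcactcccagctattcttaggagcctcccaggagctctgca

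A CArG box began at -73 in the Acta1 window, at -104 in Myh4 and at -35 in Ldb3, counted from the annotated start. Promoter windows were listed for 26 of the 33 muscle genes, and these 3 were the ones with a CArG box, while 1.81% of all genes with a window had one. An E-box was found in 22 of the 26, where 75.0% of all genes had one. Its form CAGCTG, one of the sequences that CANNTG covers, was found in 13 of the 26, where 18.3% of all genes had it. Acta1, Myh4, Mylpf and Tnnc2 all had an E-box, and the Ldb3 window had none. A MEF2 motif occurred in 5 of the 26 (Myh1, Myh4, Myh8, Pvalb and Ttn), where 3.70% of all genes had one. These matches describe letters in a window and not occupied sites.

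The fast-fibre genes were the group that stood apart, and they did so in 1 array. Myh4, the myosin heavy chain of the fastest fibres, had log2 values of 3.38 and 5.28 in knockout arrays 1 and 2, against 3.70 and 3.59 in wild-type arrays 1 and 2. Tnnc2, the calcium-binding subunit of fast troponin, had 5.37 and 6.55 in knockout arrays 1 and 2, against 5.62 and 5.32 in wild-type arrays 1 and 2. Mylpf, the fast regulatory light chain, had 4.97 and 6.18 in knockout arrays 1 and 2, against 5.38 and 5.23 in wild-type arrays 1 and 2. For each of the 3 genes knockout 2 was high, the other 3 arrays lay together, and the genotypes overlapped. The log2 fold changes were 0.69 for Myh4 (SE 0.608, limma adjusted p = 0.851), 0.49 for Tnnc2 (SE 0.391, adjusted p = 0.828) and 0.27 for Mylpf (SE 0.394, adjusted p = 0.926). Without knockout 2 they were -0.26, -0.10 and -0.34, and without knockout 1 they were 1.64, 1.08 and 0.88.

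For the other parts of the fast troponin complex, the brightest probe sets also had knockout 2 as the highest array. Tnni2, the inhibitory subunit, had 4.28 and 5.06 in knockout arrays 1 and 2, against 4.60 and 4.42 in wild-type arrays 1 and 2. Tnnt3, the tropomyosin-binding subunit, had 3.77 and 4.42 in knockout arrays 1 and 2, against 4.00 and 3.89 in wild-type arrays 1 and 2. By these probe sets wild type 1 came next and knockout 1 was lowest for both genes. The other probe sets of Tnni2 differed from this. The second put knockout 2 highest by 0.05, with 4.53 and 4.58 in knockout arrays 1 and 2, against 4.42 and 4.46 in wild-type arrays 1 and 2. The dimmest had both knockouts below both wild types, with 3.71 and 3.86 in knockout arrays 1 and 2, against 3.97 and 3.99 in wild-type arrays 1 and 2, a log2 fold change of -0.20. Actn3, the Z-disc actin crosslinker of fast fibres, had 4.54 and 5.0 in knockout arrays 1 and 2, against 4.62 and 4.67 in wild-type arrays 1 and 2. Myl1, the fast essential light chain, was far above the control probe sets in every array, with 9.74 and 10.10 in knockout arrays 1 and 2, against 9.81 and 9.45 in wild-type arrays 1 and 2. Myl1 thus kept the same top 2 arrays as the troponins over a range of 0.65, and its log2 fold change was 0.29 (SE 0.173, limma adjusted p = 0.778). The Myl1 difference was 0.47 without either knockout 1 or wild type 1, and 0.11 without either knockout 2 or wild type 2.

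The other fast genes spread less. Myoz1, a Z-disc protein that binds calcineurin, had 4.07 and 4.29 in knockout arrays 1 and 2, against 4.17 and 4.11 in wild-type arrays 1 and 2. Myh2, the heavy chain of fast oxidative fibres, had 3.79 and 3.85 in knockout arrays 1 and 2, against 3.90 and 3.69 in wild-type arrays 1 and 2, and was the fast gene in which knockout 2 was not the highest array. Myh1, the heavy chain of intermediate fast fibres, had 4.03 and 4.07 in knockout arrays 1 and 2, against 3.92 and 3.89 in wild-type arrays 1 and 2 by its brightest probe set, a log2 fold change of 0.15 (SE 0.065, limma adjusted p = 0.729). That probe set put knockout 2 only 0.04 above the next array, while the second and the dimmest probe sets of Myh1 put it far higher. The third did not. It had 3.84 and 3.69 in knockout arrays 1 and 2, against 3.85 and 3.69 in wild-type arrays 1 and 2. The second probe set of Myh1 had 3.27 and 5.07 in knockout arrays 1 and 2. Its values were 3.72 and 3.41 in wild-type arrays 1 and 2. The dimmest of its 4 probe sets had 3.22 and 4.73 in knockout arrays 1 and 2, against 3.61 and 3.15 in wild-type arrays 1 and 2. The suffix of that dimmest probe set marks probes that can match other sequences, and Myh1, Myh2, Myh4, Myh8 and Myh3 are close relatives clustered on chromosome 11, so signal cannot be assigned to 1 of them with certainty. The second probe set of Myh4 was flat, at 3.55 and 3.61 in knockout arrays 1 and 2, against 3.48 and 3.54 in wild-type arrays 1 and 2.

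**Figure D3:**
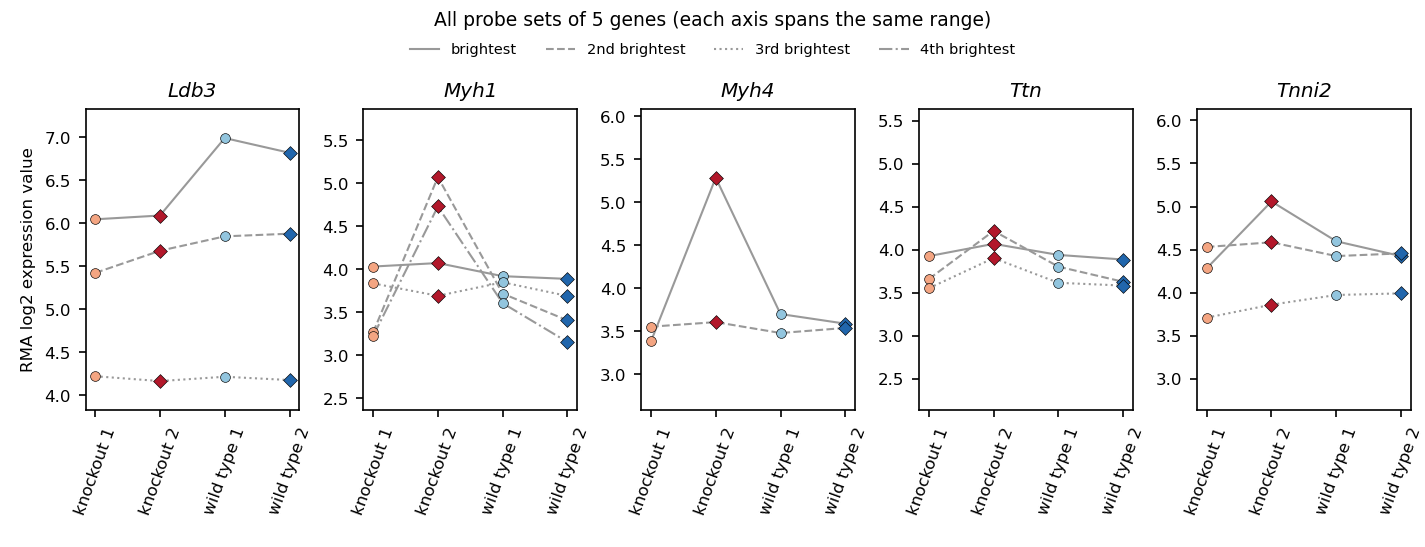
RMA log2 values (y axis, same span in each panel) of every probe set of Ldb3, Myh1, Myh4, Ttn and Tnni2 in the 4 arrays, with line styles ranking probe sets by mean level. The upper 2 probe sets of Ldb3 are lower in both knockouts and the dimmest is flat near 4.2, while the second and the dimmest of Myh1 and the first of Myh4 peak in knockout 2.

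Slow-fibre and developmental genes showed little of this. Myh7, the slow heavy chain, had 4.30 and 4.53 in knockout arrays 1 and 2, against 4.25 and 4.58 in wild-type arrays 1 and 2. Tnni1, the slow inhibitory troponin subunit, had 4.33 and 4.54 in knockout arrays 1 and 2, against 4.31 and 4.35 in wild-type arrays 1 and 2. Tnnc1, the slow and cardiac calcium-binding subunit, had 4.41 and 4.58 in knockout arrays 1 and 2, against 4.52 and 4.31 in wild-type arrays 1 and 2. Knockout 2 was highest for Tnni1 by 0.19 and for Tnnc1 by 0.06, and wild type 2 was highest for Myh7. Tnnt1, the slow tropomyosin-binding subunit, ran from 4.63 to 4.80 over the arrays, and Mybpc1, the slow myosin-binding protein C, from 3.94 to 4.19. The 5 slow genes had log2 fold changes of -0.08 to 0.11 and a median of 0.069, and the lowest limma adjusted p among them was 0.852.

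Myh3, the embryonic heavy chain, had 4.31 and 4.33 in knockout arrays 1 and 2, against 4.39 and 4.38 in wild-type arrays 1 and 2. Myh8, the neonatal heavy chain, had 3.60 and 3.78 in knockout arrays 1 and 2, against 3.62 and 3.47 in wild-type arrays 1 and 2. Both myosins stayed under the 95th percentile of the control probe sets in every array, so at this age their signal was not separable from background. The differences were -0.07 (SE 0.063) for Myh3 and 0.14 (SE 0.097) for Myh8, with limma adjusted p of 0.860 and 0.795.

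The classes are set side by side as deviations of each gene from its own mean, which avoids comparing levels between probe sets. The median deviation of the 13 fast genes was -0.17 and 0.32 in knockout arrays 1 and 2, against -0.03 and -0.13 in wild-type arrays 1 and 2. Slow genes had -0.06 and 0.11 in knockout arrays 1 and 2, against -0.01 and -0.03 in wild-type arrays 1 and 2. For the developmental myosins it was -0.03 and 0.07 in knockout arrays 1 and 2, against 0.02 and -0.06 in wild-type arrays 1 and 2. Fast genes thus spread more over the arrays, with a median range of 0.52 beside 0.25 for slow genes, 0.20 for the developmental myosins and 0.19 for all genes. Knockout 2 was the highest array for 12 of 13 fast, 3 of 5 slow and 1 of 2 developmental genes. The difference between the classes was not tested, and the slow and developmental genes were dim.

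**Figure D4:**
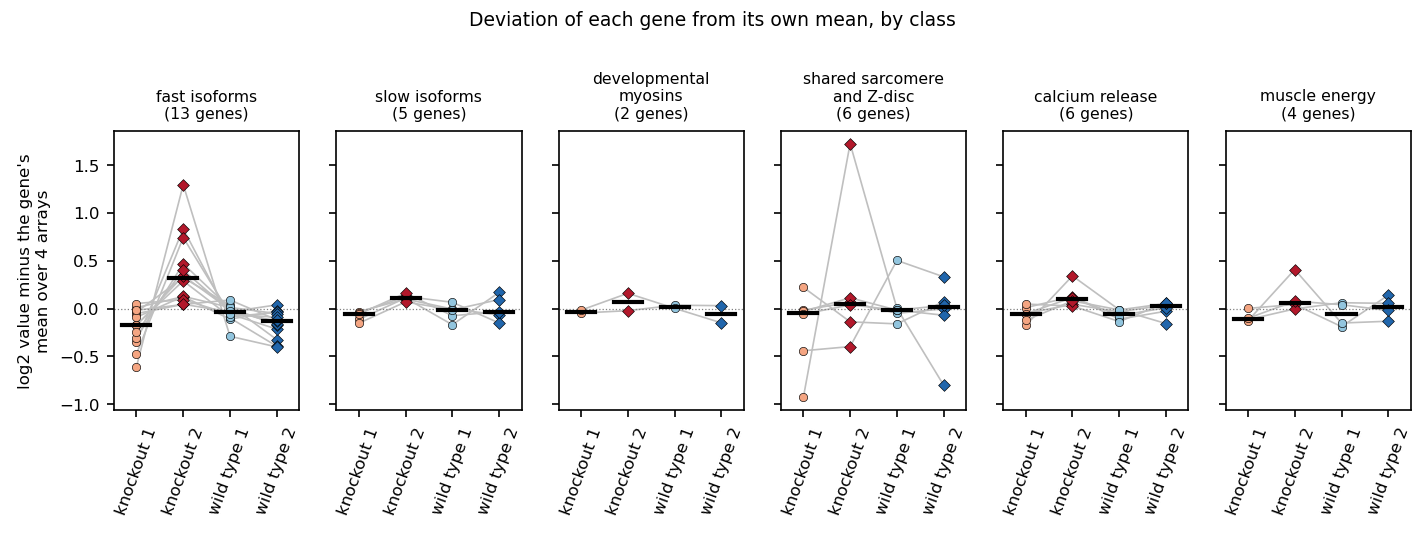
Log2 value of each muscle gene minus its own mean over the 4 arrays (y axis) in knockout and wild-type arrays, 1 panel a class (Casq1, Atp2a1 and Pvalb count in both the fast and the calcium class), with grey lines joining a gene and black bars marking class medians. The fast class has its median at 0.32 in knockout 2 and below 0 in the other 3 arrays, while the slow and developmental medians there are 0.11 and 0.07.

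Among the parts shared by all fibres, Acta1 and Ldb3 differed most between arrays, in different ways. Acta1, the skeletal muscle actin, had log2 values of 4.74 and 7.39 in knockout arrays 1 and 2, against 5.67 and 4.86 in wild-type arrays 1 and 2. Knockout 2 was highest, wild type 1 came next, and the genotypes overlapped. Acta1 averaged 6.06 ± 1.88 in knockout arrays and 5.27 ± 0.57 in wild-type arrays (SD, n = 2 each). Its log2 fold change was 0.80 (SE 0.883, limma adjusted p = 0.885). Without knockout 2 it was -0.53, and without knockout 1 it was 2.12. Acta1 lies on chromosome 8, as Mmp15 does, 255 measured genes away.

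Ldb3 encodes a PDZ and LIM domain protein of the Z-disc that binds alpha-actinin, and it was the muscle gene with the lowest p for genotype. Its brightest probe set had 6.05 and 6.09 in knockout arrays 1 and 2, against 6.99 and 6.82 in wild-type arrays 1 and 2. Both knockouts lay below both wild types, and the gap between genotypes exceeded the gaps within them. It averaged 6.07 ± 0.031 in knockout arrays and 6.90 ± 0.121 in wild-type arrays (SD, n = 2 each). Its log2 fold change was -0.84 (SE 0.084), which is 1.79-fold lower. By limma its unadjusted p was 0.000182 and its adjusted p was 0.514, so Ldb3 did not pass. It was the 1 muscle gene lower by at least 0.5, where 0.48% of all genes were, and 0.117% of all genes had a fold change as low or lower. The value kept its direction with each array left out, between -0.92 and -0.75.

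The 3 probe sets of Ldb3 disagreed in size. The second had 5.42 and 5.68 in knockout arrays 1 and 2, against 5.85 and 5.88 in wild-type arrays 1 and 2, a log2 fold change of -0.31 (SE 0.102, limma adjusted p = 0.727 among all probe sets). Its dimmest probe set had 4.22 and 4.17 in knockout arrays 1 and 2, against 4.22 and 4.18 in wild-type arrays 1 and 2, a log2 fold change of -0.003 (SE 0.069). The upper pair thus had both knockouts below both wild types and the dimmest, under the 95th percentile of the control probe sets, did not separate them. The mean of the 3 gave -0.38 (limma adjusted p = 0.666). Which transcripts of Ldb3 each probe set detects was not analysed here. Knockout 2 was not the highest array for any of the 3.

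The other Z-disc and filament genes were near background, and most were flat. Tcap, which caps titin at the Z-disc, ran from 4.63 to 4.74. Myot, a Z-disc actin crosslinker, ran from 3.32 to 3.42. Actn2, an actin crosslinker of skeletal and cardiac muscle, had 4.48 and 4.11 in knockout arrays 1 and 2, against 4.09 and 4.33 in wild-type arrays 1 and 2. Actn2 thus had knockout 1 and wild type 2 as its higher arrays, the same as the hair follicle markers, and its relation to them was not tested. Ttn, the titin spring that spans the sarcomere, had 3.93 and 4.07 in knockout arrays 1 and 2, against 3.94 and 3.89 in wild-type arrays 1 and 2. The 3 probe sets of Ttn were all highest in knockout 2, with log2 fold changes of 0.08 to 0.22.

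Among calcium genes, the brightest probe set of parvalbumin stood highest in knockout 2, and those of the release genes differed little between arrays. Pvalb, the calcium buffer of fast fibres, had 4.01 and 4.53 in knockout arrays 1 and 2, against 4.18 and 4.03 in wild-type arrays 1 and 2. Atp2a1, the calcium pump of fast fibres, had 5.18 and 5.30 in knockout arrays 1 and 2, against 5.06 and 5.15 in wild-type arrays 1 and 2. Casq1, the calcium-storing protein of the reticulum, had 5.35 and 5.45 in knockout arrays 1 and 2, against 5.37 and 5.44 in wild-type arrays 1 and 2. Pvalb was high in knockout 2, Atp2a1 was slightly higher in both knockouts, and Casq1 differed by less than 0.10 over all 4 arrays. Ryr1, the release channel, ran from 3.80 to 3.99, Cacna1s, the voltage sensor, from 3.56 to 3.76, and Trdn, a protein that joins the channel to calsequestrin, from 4.02 to 4.21. The log2 fold changes of the 6 calcium genes lay between -0.04 and 0.17, with a median of 0.069 and a lowest limma adjusted p of 0.764. The 6 probe sets of Trdn had log2 fold changes of -0.05 to 0.10, and 4 of them had knockout 2 as the highest array, 2 of these by 0.30. One of the 2 had 3.40 and 3.83 in knockout arrays 1 and 2, against 3.52 and 3.52 in wild-type arrays 1 and 2.

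Of the energy genes, the cytosolic creatine kinase was highest in knockout 2 by the brighter of its 2 probe sets. Ckm, which buffers ATP in muscle, had 4.67 and 5.21 in knockout arrays 1 and 2, against 4.65 and 4.67 in wild-type arrays 1 and 2, a log2 fold change of 0.28 (SE 0.181, limma adjusted p = 0.788). Its other 3 arrays lay within 0.03 of each other. The second probe set of Ckm did not have knockout 2 highest, with 4.42 and 4.34 in knockout arrays 1 and 2, against 4.35 and 4.32 in wild-type arrays 1 and 2. Ckmt2, the mitochondrial creatine kinase of muscle, ran from 3.18 to 3.36, at the level of the control probe sets. Eno3, the muscle enolase of glycolysis, had 7.11 and 7.15 in knockout arrays 1 and 2, against 6.92 and 7.24 in wild-type arrays 1 and 2. Mb, the oxygen-binding myoglobin, had 5.29 and 5.40 in knockout arrays 1 and 2, against 5.47 and 5.46 in wild-type arrays 1 and 2, a log2 fold change of -0.12 (SE 0.072, limma adjusted p = 0.779). Eno3 overlapped between genotypes, and Mb was slightly lower in both knockouts. The second probe set of Mb had -0.27 (limma adjusted p = 0.721 among all probe sets).

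Knockout 2 was set against the other arrays over the whole table. It was the highest of the 4 arrays for 24 of 33 muscle genes and the lowest for none, while it was highest for 25% of all genes. It exceeded knockout 1 in 31 of 33 muscle genes, where 52.3% of all genes did so. Among all 17097 genes the gap between knockout 2 and the next array was largest for Acta1 (1.72) and second for Myh4 (1.58), while Tnnc2 (0.93) ranked 6 and Mylpf (0.80) ranked 11. Knockout 2 was highest by at least 0.5 for 5 muscle genes, these 4 and Ckm, where 0.135% of all genes were. That is 15.2% of the muscle genes and 21.7% of the 23 genes with such a gap. Over all 53 probe sets of the 33 genes, knockout 2 was highest for 34, by at least 0.5 for 7. The second probe sets of Myh7, Myoz1 and Ryr1 had log2 fold changes of -0.06, -0.02 and 0.04, and of these that of Ryr1 was highest in knockout 2. Within wild type, wild type 1 exceeded wild type 2 in 19 of 33 muscle genes and in 10 of 13 fast genes, where 48.8% of all genes did so. These counts describe 1 array and carry no test of genotype.

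Further muscle genes outside the list did not show the pattern as a group, but many were dim. A mean log2 value of at least 5 was reached by 10 of 27 sarcomere, 9 of 18 excitation-contraction and 9 of 12 metabolism genes. Of all genes, 65.2% reached it. Which cells gave the signal of the brighter genes was not tested. Of 27 other sarcomere genes measured, 16 lay above 0 and 11 below, with a median of 0.010. By limma 0 passed, and 1 was lower at an unadjusted p under 0.05, where 3.38% of all genes were. Those of lowest p were Myl2, the slow and ventricular regulatory light chain (-0.19), Cryab, a small heat shock protein (0.21), and Mypn, a Z-disc protein (-0.16). Of 18 other excitation-contraction genes 9 lay above 0 and 9 below (median 0.008). By limma 0 passed, and 2 were higher at an unadjusted p under 0.05, where 3.63% of all genes were. Sarcalumenin (Srl), a calcium-binding protein of the reticulum, had 6.62 and 6.56 in knockout arrays 1 and 2, against 6.28 and 5.98 in wild-type arrays 1 and 2, a log2 fold change of 0.46 (SE 0.117, limma adjusted p = 0.693). Casq2, the slow and cardiac calsequestrin, had 0.20 and Asph, a hydroxylase whose locus also encodes the junctional protein junctin, -0.14. Both knockouts lay above both wild types for Srl and Casq2, whereas Myh4, Tnnc2 and Mylpf overlapped between genotypes. Of 12 other muscle metabolism genes 8 lay above 0 (median 0.052). By limma 0 passed, and 3 were higher at an unadjusted p under 0.05, where 3.63% of all genes were. These were Pfkm, a glycolytic enzyme (0.33), Ak1, an adenylate kinase (0.34), and Slc2a4, the insulin-responsive glucose transporter, also a fat cell gene (0.27). Knockout 2 was highest for 8 of 27 sarcomere, 5 of 18 excitation-contraction and 3 of 12 metabolism genes, beside 25% of all genes. It was highest by at least 0.5 for 0 genes of these 3 lists. The nearest was Myom3, an M-band protein picked after its values were seen, with 5.04 and 5.48 in knockout arrays 1 and 2, against 5.0 and 4.84 in wild-type arrays 1 and 2.

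Regulators of the myogenic lineage differed little between arrays, but many were dim. Myod1, Pax7, Myf5, Myf6 and Vgll2 lay under the upper percentile of the control probe sets (4.49 to 4.56) in every array. Myog lay above it in wild type 1 only. For these genes a small difference does not show that expression was steady. Myod1, an early lineage factor, had 4.40 and 4.08 in knockout arrays 1 and 2, against 4.20 and 4.22 in wild-type arrays 1 and 2. Myog, a later factor of differentiation, had 4.38 and 4.29 in knockout arrays 1 and 2, against 4.53 and 4.43 in wild-type arrays 1 and 2. Pax7, the satellite cell factor, ran from 4.06 to 4.18. Myod1 and Myog were lowest in knockout 2, and Pax7 was highest there by 0.05. Knockout 2 was the highest array for 6 of 11 regulators, by at least 0.5 for 0 of them. Of the 11, 5 lay above 0 (median -0.002). By limma 0 passed and 0 had an unadjusted p under 0.05. The log2 fold changes were -0.15 for Myog, 0.13 for Cdh15 (M-cadherin) and -0.11 for Pax3. Of the regulators above the control level in every array, Cdh15 and Mef2c were highest in knockout 2, by 0.18 and 0.04. Pax3, Mef2a and Mef2d were not.

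Markers of other cells are given beside the fast genes, and their part in the result was not tested. Cardiac genes (8 of 9 measured) had mean log2 levels of 4.36 and 4.36 in knockout arrays 1 and 2, against 4.29 and 4.34 in wild-type arrays 1 and 2. The atrial heavy chain gene Myh6 had no probe set named for it, and the atrial peptide gene Nppa ran from 3.57 to 3.71. Smooth muscle genes (6 of 8 measured) had 8.76 and 8.75 in knockout arrays 1 and 2, against 8.94 and 8.82 in wild-type arrays 1 and 2. All 6 had log2 fold changes below 0, with a median of -0.145: -0.20 for Lmod1, -0.15 for Mylk, -0.15 for Actg2, -0.14 for Cnn1, -0.06 for Myh11 and -0.04 for Acta2. The genotypes did not overlap for 3 of them, all lower in knockouts, where 19.4% of all genes were so placed. By limma the lowest adjusted p of the 6 was 0.737. Knockout 2 was the highest array for 2 of 8 cardiac and 0 of 6 smooth muscle genes. The 2 were Myl4 and Actc1, the cardiac genes above the upper percentile of the control probe sets (4.49 to 4.56) in every array. The other cardiac genes lay under it in every array, so the cardiac list cannot show whether they shared the pattern. Actc1 had 4.85 and 4.95 in knockout arrays 1 and 2, against 4.82 and 4.73 in wild-type arrays 1 and 2. In Myl4, picked after its values were seen, knockout 2 was highest by 0.41. Myl4 had 6.13 and 6.57 in knockout arrays 1 and 2, against 6.16 and 6.14 in wild-type arrays 1 and 2. Endothelial genes were highest in knockout 2 for 7 of 8, with a median deviation of 0.005 and 0.148 in knockout arrays 1 and 2, against -0.065 and -0.100 in wild-type arrays 1 and 2. White adipocyte genes (9 of 12 measured) were highest in knockout 2 for 6 of 9, and epithelial genes (13 of 13 measured) were lowest there for 10 of 13. Over all 17097 genes, knockout 2 was highest for 25% and lowest for 4020. Schwann cell and nerve genes (5 of 8 measured) had mean levels of 8.79 and 8.90 in knockout arrays 1 and 2, against 8.80 and 8.69 in wild-type arrays 1 and 2. Brown fat genes (9 of 12 measured) had mean levels of 9.41 and 8.92 in knockout arrays 1 and 2, against 8.34 and 8.39 in wild-type arrays 1 and 2, with Ucp1 at a log2 fold change of 1.64 (SE 0.274, limma adjusted p = 0.651). Brown fat genes were thus highest in knockout 1, the array in which 8 of 13 fast muscle genes were lowest, beside 4830 of all 17097 genes. The hair follicle markers were at their low level in knockout 2 and in wild type 1, and in wild type 1 the fast muscle genes came second.

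**Figure D5:**
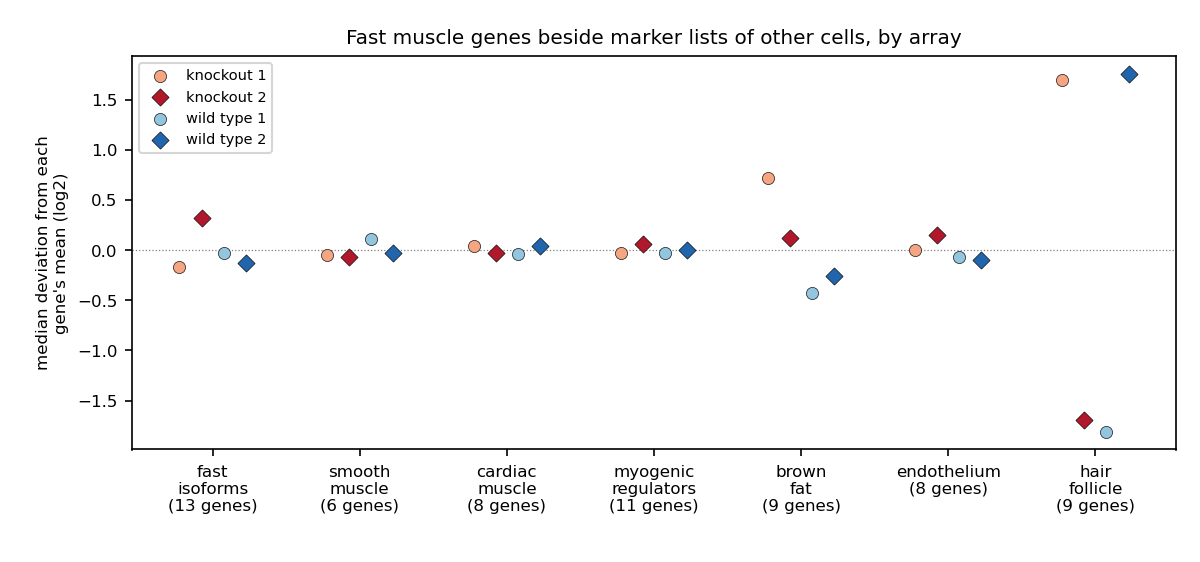
Median over genes of the deviation from each gene's own mean (y axis, log2) in the 4 arrays for the fast muscle genes and 6 marker lists (x axis, with the number of measured genes). Fast muscle genes are high in knockout 2 (0.32), brown fat genes are highest in knockout 1 (0.72), and hair follicle genes are high in knockout 1 (1.70) and wild type 2 (1.76).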

How the data were processed

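Whole inguinal mammary gland of 4 samples (2 knockout, 2 wild type, postnatal day 10) was measured on 1 array each. Per the submitters' processing notes, the authors summarised probe sets with RMA in affy, with version and options not given in the sources used here, and deposited log2 values. This method subtracts background, gives all arrays one distribution and summarises probes, so differences of dim genes are compressed. Precision is limited by the number of arrays (median SE of a log2 fold change 0.080).

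The file held 45141 probe sets, 104 of them controls. In the platform annotation 28898 had 1 gene symbol and 551 several, and no gene was named from those with several. The probe set of highest mean stood for a gene. Knockout was compared with wild type by lmFit and eBayes in limma 3.58.1 (R 4.3.3), two-sided, without covariates, with Benjamini-Hochberg adjustment over 17097 genes and a threshold of 0.05. The steps were tested on simulated data. All 35 members are named, with all probe sets of Ldb3; of further muscle lists the 3 genes of lowest p and a few fixed markers are named, and the marker lists of other cells are given as counts and levels. Members and lists were chosen with earlier results of these data known. Alternatives were the mean of probe sets, quantile normalization, median centring, a filter on dim genes, trended or robust variances, a block for replicate number, leaving out each array in turn, and every probe set tested; a crossed block was added after seeing the data.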

Additional observations from a re-analysis of the deposited data

How the results depend on the processing

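Across all alternatives, including each array left out, 0 muscle genes passed the threshold. The count over all genes was 1 in the fit as reported and 2 with robust variances. It was 0 with the mean of probe sets, 0 with the replicate number as a block and 0 with the crossed block. With every probe set tested, 2 passed, which counts probe sets and not genes. Muscle genes at an unadjusted p under 0.05 numbered 2 with the mean of probe sets and 2 with the crossed block, against 1 as reported, and 1 to 10 with an array left out. With the replicate block the log2 fold change of Ldb3 was -0.84 (limma adjusted p = 0.716), and the block changed no call of a muscle gene. Deviations of same-numbered arrays correlated at a Pearson r of -0.480 across genes, and those of crossed arrays at 0.480. With 2 arrays a genotype these are 1 value with opposite signs. They cannot decide whether the numbers paired the samples, because any tissue difference shared across genotypes also sets the sign. The crossed block was chosen after seeing the data. The adjusted p of Ldb3 ran from 0.253 to 0.865 over the alternatives, with log2 fold changes of -0.92 to -0.38. With a mean log2 value of at least 5 required, 9 muscle genes were left and 6 of them lay above 0. That filter left no slow gene and no developmental myosin, so their medians could not be given. With an array left out, 11 to 29 muscle genes lay above 0, the median of all muscle genes was -0.067 to 0.148, that of the fast genes -0.092 to 0.426, that of the slow genes -0.0037 to 0.135 and that of the developmental myosins -0.011 to 0.089; the lower end of each median came without knockout 2 and the upper end without knockout 1. A genotype with 1 array left is taken to vary like the other. Signal near the control probe sets limits 14 of the 33 muscle genes in every array. It limits 6 more in some arrays, among them Myh4, Tnni2 and Pvalb.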
